A study of Aspergillus nidulans with 8 samples.

Results

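The transcript response of Aspergillus nidulans, a filamentous fungus, to amphotericin B (AmB) was read from the 2 arrays whose scanner files are labelled reference strain, 1 from AmB-treated and 1 from untreated mycelium, out of 8 arrays in the series. Both lay on the same slide, and they were chosen by their labels. The AmB array held labelled cRNA of cultures given 2 mM AmB, the dose as the labels state it, for 0.5 h at a culture age of 16 h. The untreated array held that of cultures harvested at 16.5 h without stress. The labelled genotype of both is pyrG89, AfupyrG+; pyroA+; veA+, a strain with atfA intact. The other strain of the series is labelled pyrG89, AfupyrG+; pyroA4; ΔatfA::pyroA; veA+, and both strains also went through CdCl2 and Congo Red stress. All cultures were grown submerged at 37 °C in minimal broth, and each array carried RNA pooled from 3 cultures, so every group is 1 array with no replicate and no value below has an error between cultures.

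AmB is a polyene that binds ergosterol, the main sterol of fungal membranes, and makes the membrane leaky. Fungi build ergosterol from acetyl-CoA through mevalonate and squalene. AtfA is a bZIP transcription factor that acts with the SakA stress kinase in A. nidulans and serves the response to several stresses and the resistance of spores.

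The atfA probe did not bear out the strain labels. Its processed signal was 2.30 on the AmB array and 2.55 on the untreated array labelled reference, and it was well above background on neither. It was 3.09 and 2.38 on the CdCl2 and Congo Red arrays with the same strain label, also not well above background. On the 4 arrays labelled deletion it was well above background, with signals of 3271 (AmB), 9708 (CdCl2), 8666 (Congo Red) and 7604 (untreated). The pair of arrays described here is therefore called by its label throughout, with the reminder that it carried no measurable atfA transcript. In the authors' deposited value table the strain labels run the other way: atfA stood at 6.19 to 6.26 on the log2 scale in the columns labelled deletion and at 13.67 to 14.60 in those labelled reference. Across 6980 probes, the AmB minus untreated difference of the scanner arrays labelled reference correlated at r = 0.987 with that of the table's columns labelled deletion, which describes a match between files and not between samples. For CdCl2 and Congo Red the same match gave r = 0.980 and 0.945, so the treatment labels of this set ran the same way in both sources.

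The labelled tissue is mycelium, and the markers were read against it. Of 15 marker genes chosen for strain, hyphae and spores, 11 were found by symbol. The genes with the symbols gpdA (glyceraldehyde-3-phosphate dehydrogenase) and chsB (AN7032, a chitin synthase), chosen as hyphal markers, were well above background on both arrays. Their AmB minus untreated differences were 0.27 and -1.21 on the log2 scale. Some symbols are borrowed from other species, and whether AN7032 is the hyphal chsB of A. nidulans was not checked. The spore regulators brlA and abaA were above background on the untreated array only, and wetA and the spore wall gene dewA on neither. The spore coat gene rodA and the spore pigment gene yA were above background on both, with differences of 0.67 and -0.49. The nutritional markers pyroA and pyrG differed by 1.67 and -1.64.

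The AmB arrays stood apart from all others before any scaling. The 75th percentile of the gene probes was 335.6 on the AmB array labelled reference, against 1368 on its untreated array, a 4.08-fold gap. It was 261.9 on the AmB array labelled deletion and 1058 to 1881 on the other 5. The 7 E1A spike-in probes, which report a control RNA added to each labelling, were not dimmer: they were 0.42 higher on the log2 scale on the AmB array than on the untreated array, with a range of 0.33 to 0.55. Relative to the spike-ins, the 75th percentile of the genes was 2.44 lower on the log2 scale on the AmB array, or 5.44-fold. All levels below are log2 processed signals relative to the 75th percentile of their own array, so a level of 0 is that percentile and a difference is a change of share, not of amount. Fewer cells, less RNA per cell, the RNA input and the labelling cannot be told apart in these bulk samples, and none was tested.

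**Figure D1:**
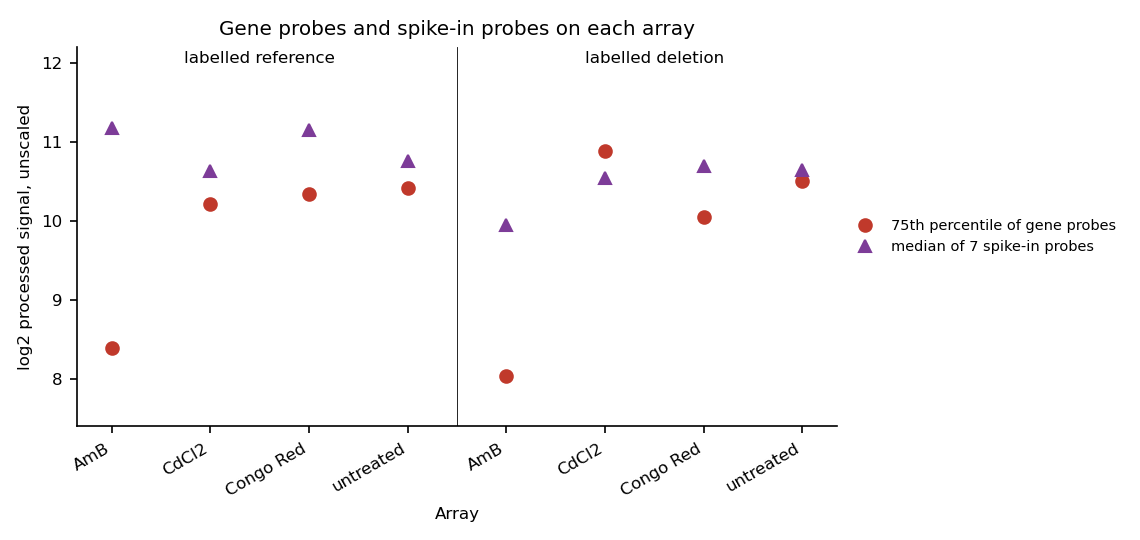
Unscaled log2 processed signal on each of the 8 arrays, with circles for the 75th percentile of the gene probes and triangles for the median of the 7 spike-in probes. On the AmB array labelled reference the gene probes sit 2.79 below the spike-ins, against 0.34 below on its untreated array.

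Of 10550 gene probes, 8483 were well above background on at least 1 of the pair and 7371 on both. Under AmB, 2302 probes were at least 2-fold higher, which is 27.1% of the 8483 measured, and 1760 were at least 2-fold lower, which is 20.7%. With no replicate these are sizes and not test calls. Among probes above background on both arrays, 1892 were at least 2-fold higher, 1616 at least 2-fold lower, and 3863 lay within 2-fold. The higher side was the longer one: 976 probes exceeded 4-fold upward and 332 downward, and 246 exceeded 16-fold upward against 5 downward. The median difference was -0.04, and the 5th and 95th percentiles were -1.96 and 3.43. The 4 spots of a probe gave a median standard error of 0.054 for a difference, which covers the slide and the scanner alone. The split depended on the scaling and the background. Quantile normalization gave 1912 higher and 2477 lower, with a median of -0.29, and the matching columns of the authors' deposited table, those labelled deletion, gave 1575 and 1980, with a median of -0.27. The normexp background gave 3381 higher and 838 lower, with a median of 0.59, and under it erg4, spb4, trm61, aspC and kipB, given below as lower, had values of 0.31 to 0.97. The spike-in scaling gave 561 higher and 6591 lower, with a median of -2.49. Under the spike-in scaling every difference falls by 2.44, so a gene given below as higher by less than that turns lower.

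**Figure D2:**
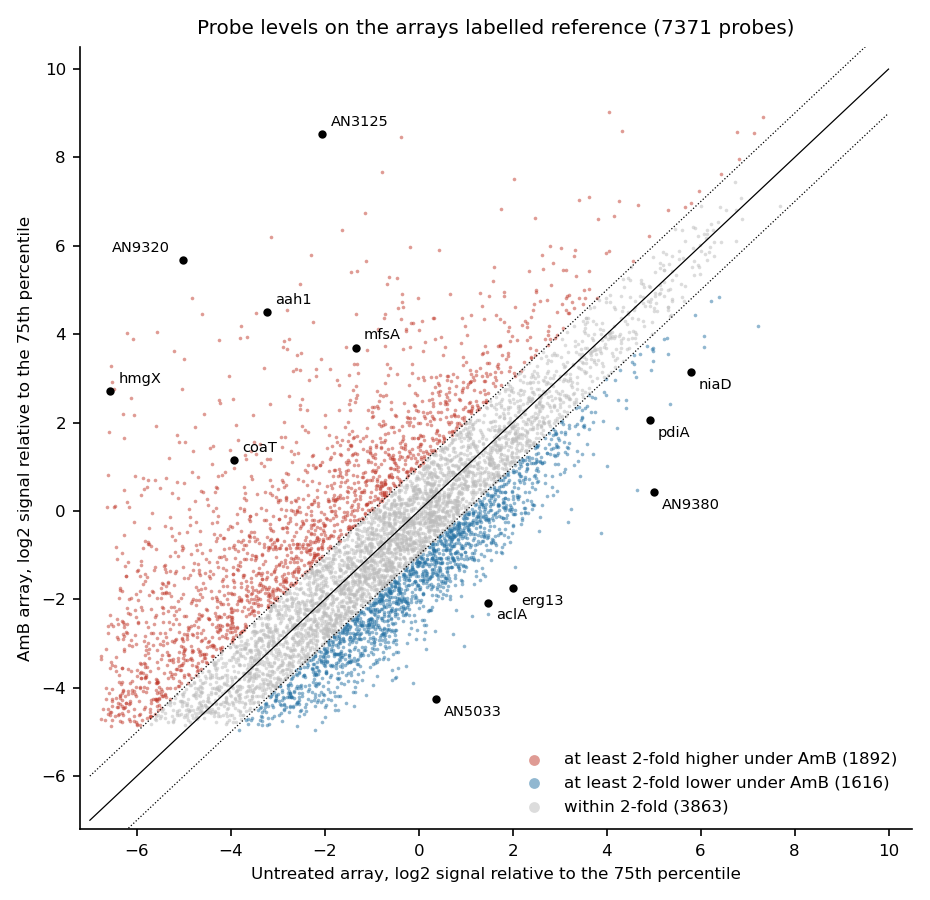
Level of each of the 7371 probes above background on both arrays labelled reference, with the untreated array on the horizontal axis and the AmB array on the vertical axis, both as log2 signal relative to the array's 75th percentile. Red points are the 1892 probes at least 2-fold higher under AmB, blue points the 1616 at least 2-fold lower; the red cloud reaches farther from the diagonal, up to AN9320 at 10.70.

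Dim probes leaned upward. With the probes in 10 equal bins by mean brightness, the dimmest bin had a median difference of 1.01 and 50% of its probes at least 2-fold higher, while the medians of the other 9 bins lay between -0.27 and 0.08. A further 410 probes were above background on the AmB array only. All 410 entered the higher count, since the lowest signal above background corresponded to a level of -4.97 on the AmB array and -6.78 on the untreated array. Of the 702 probes above background on the untreated array only, 144 were at least 2-fold lower by their bound. Genes with a symbol in the annotation table leaned the other way from the rest: 18.3% of the 739 measured were higher and 27.7% lower, with a median of -0.26, against 28.0% higher and 20.1% lower of 7744 without a symbol. The gene lists below were matched by symbol, so 18.3% and 27.7% are the nearest shares to set beside their counts.

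Genes that break down tyrosine held 4 of the 5 largest positive differences among the annotated genes. This pathway opens the ring of homogentisate and yields fumarate and acetoacetate. The homogentisate dioxygenase gene hmgA had a level of 0.20 on the AmB array and -6.22 on the untreated array, a difference of 6.42 ± 0.09 (SE over the spots, 3 or 4 on each array, as for the values that follow). The maleylacetoacetate isomerase gene maiA had levels of 0.49 under AmB and -5.84 untreated, and differed by 6.34 ± 0.11. The fumarylacetoacetate hydrolase gene fahA had levels of 0.37 under AmB and -5.92 untreated, and differed by 6.29 ± 0.13. All 3 enzymes of the sequence were thus near the bottom of the measurable range in untreated mycelium and near the 75th percentile under AmB. Their neighbour hmgX gave a processed signal of 2202 on the AmB array and 14.5 on the untreated array, a difference of 9.28 ± 0.16. The same 4 genes differed on the arrays labelled deletion by 1.57 (hmgA), 3.07 (maiA), 1.73 (fahA) and 5.76 (hmgX). Under CdCl2 on the arrays labelled reference they differed by 0.76, -0.02, 0.37 and 1.96 in the same gene order. Under Congo Red on the arrays labelled reference the values were 1.80, 0.76, 0.83 and 2.75.

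These genes lie side by side in the annotation's gene order, and the high values covered a block of 7 neighbours from AN1894 to AN1900. The genes AN1899 and AN1900, which have no symbol, differed by 9.26 and 6.12, and AN1894 at the other end by 1.17. Just outside it, AN1893 differed by 0.53 and AN1901 by 0.42. The large values thus spanned the 6 genes from maiA to AN1900.

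Other annotated genes with large positive differences took part in transport, fatty acid and CoA metabolism and the wall. The gene aah1, which encodes adenine deaminase in yeast, had levels of 4.49 under AmB and -3.22 untreated, a difference of 7.72 ± 0.06. The CoA-transferase gene coaT had levels of 1.15 under AmB and -3.93 untreated, a difference of 5.09 ± 0.08. The major facilitator transporter gene mfsA had levels of 3.69 under AmB and -1.34 untreated, a difference of 5.03 ± 0.03. Of these, mfsA was the one with a larger value on the arrays labelled deletion, 6.34, while aah1 differed by 2.31 and coaT by 1.01 there. The exopolygalacturonase gene pgxB (4.40), the short-chain fatty acid regulator gene farB1 (4.41) and the chitin synthase gene with the symbol chsD (AN1046, 4.75) came next. The 12 highest were completed by scw4 (4.34), which in yeast encodes a wall protein related to glucanases, and dspC (4.17).

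The 12 lowest annotated genes included sterol, lipid, secretion and nitrate genes. The hydroxymethylglutaryl-CoA synthase gene erg13, an early step to mevalonate, had levels of -1.74 under AmB and 2.01 untreated, a difference of -3.75 ± 0.05. The gene aclA, for a subunit of ATP citrate lyase, which makes cytosolic acetyl-CoA, had levels of -2.08 under AmB and 1.48 untreated, a difference of -3.56 ± 0.08. The phenol oxidase gene ivoB, known for conidiophore pigment, had levels of -1.26 under AmB and 2.05 untreated, a difference of -3.31 ± 0.04. All 3 had stood above the 75th percentile of the untreated array. The others were erg4 (-3.04), pfa4 (-2.97), gmtA (-2.86), pdiA (-2.85), trm6 (-2.85), sld2 (-2.74), clxA (-2.71), loc1 (-2.69) and niaD (-2.65), and most are described with their groups below. On the arrays labelled deletion, 11 of the 12 highest genes were also at least 2-fold higher, all but chsD, and 8 of the 12 lowest also at least 2-fold lower. Against the CdCl2 array of that set, for a reason given below, the counts were 10 and 8.

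**Figure D3:**
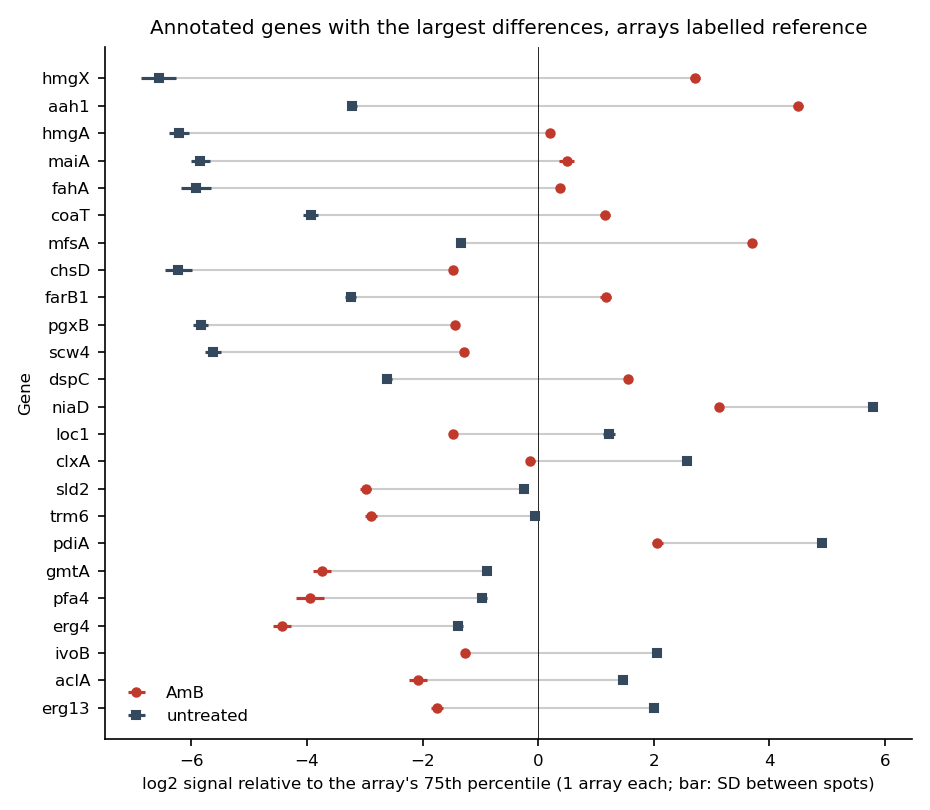
Levels of the 12 highest and the 12 lowest annotated genes on the AmB array (circles) and the untreated array (squares) labelled reference, as log2 signal relative to each array's 75th percentile; bars are SDs between the 3 or 4 spots kept. The line joining the points is longest for hmgX, at 9.28, and in the lower group it is longest for erg13, at -3.75.

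Genes without a symbol gave the most extreme values. The largest rises and falls that follow are of probes above background on both arrays. A gene of the run AN3212 to AN3210, measured on the AmB array only, had a larger value, a lower bound of 12.12 on the log2 scale. AN9320 had levels of 5.68 under AmB and -5.02 untreated, a difference of 10.70 ± 0.07. AN3125 had levels of 8.52 under AmB and -2.06 untreated, a difference of 10.58 ± 0.04. Both differed strongly on the arrays labelled deletion as well, by 4.48 and 9.15. AN11825 (10.24) and AN3197 (9.96) followed. At the low end, AN5033 differed by -4.62, AN9380 by -4.57, AN2549 by -4.36 and AN8647 by -4.18, and all 4 were also at least 2-fold lower on the arrays labelled deletion (-1.81, -2.94, -1.61 and -2.97). Among annotated genes measured on 1 array of the pair, the feruloyl esterase gene faeB-2 was at least 25.1-fold higher, mfs56 at least 13.7-fold and the mating-type gene MAT2 at least 8.66-fold. The alpha-glucan synthase gene ags2 was at least 29.3-fold lower, mirD at least 6.86-fold and mak5, for a helicase of ribosome assembly in yeast, at least 3.68-fold.

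The genes of sterol synthesis were mostly lower. Of 18 measured, 10 were at least 2-fold lower and 1 higher. The median over the 17 measured on both arrays was -1.62, against -0.04 over all probes and -0.26 over genes with a symbol. The sterol reductase gene erg4, for the last step to ergosterol, had levels of -4.43 under AmB and -1.39 untreated. Also among the 4 farthest from 0 were erg5, the sterol desaturase gene (-2.28), and erg24B, for a sterol C-14 reductase (-2.20). The 1 higher member was erg4A, picked out here after its value was seen, with levels of -0.36 under AmB and -2.17 untreated, a difference of 1.81, which is opposite to its namesake erg4. On the arrays labelled deletion the list's median was -0.82, with 6 members lower and 0 higher. The difference between the sets was not tested.

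Both measured genes of sphingolipid synthesis were lower too: the sphinganine hydroxylase gene sur2 by -1.70 and lcb2, for the serine palmitoyltransferase that starts the pathway, by -1.43. The list drawn up for phospholipids and sphingolipids held 4 genes, all at least 2-fold lower, with a median of -2.34. The other 2 were aclA (-3.56), which supplies acetyl-CoA, and pfa4 (-2.97), which in yeast attaches palmitate to proteins, so neither makes membrane lipid itself. The median of the 4 was -1.87 on the arrays labelled deletion, where aclA was the smallest at -0.63, against 0.06 under CdCl2 and 0.13 under Congo Red on the arrays labelled reference.

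Genes for making and folding secreted proteins were lower in several lists. In the endoplasmic reticulum, the protein disulphide isomerase gene pdiA had levels of 2.06 under AmB and 4.92 untreated, and the calnexin gene clxA had levels of -0.13 under AmB and 2.58 untreated. The lumenal Hsp70 gene bipA had levels of 0.75 under AmB and 2.50 untreated, a difference of -1.75. All 3 were lower under AmB, and under CdCl2 the same genes differed by 0.77, 1.27 and 1.30. The genes of the unfolded protein response, ireA and hacA, differed by 0.71 and -0.06. Of 18 genes for protein glycosylation and GPI anchors, 14 were lower and 0 higher, with a median of -1.77. They included the GDP-mannose transporter gene gmtA, the glucosidase gene cwh41 (-2.40), pigc (-2.19) and the O-mannosyltransferase gene pmt2 (-2.19). This list was drawn up after values had been seen. Of 13 genes of vesicle transport, 6 were lower and 2 higher, beside 27.7% and 18.3% over genes with a symbol. The list's median was -0.63. The COPII coat genes sec31 and sec13 differed by -1.74 and -1.52, while the signal peptidase gene sec11 had levels of 7.02 under AmB and 4.26 untreated, a difference of 2.75 against -0.26 on the arrays labelled deletion.

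Ribosome assembly genes were nearly all lower. Of 22 measured, 19 were at least 2-fold lower and 0 higher, with a median of -1.75 over the 20 measured on both arrays. The 4 farthest from 0 were loc1, for a factor of the large subunit in yeast (-2.69), erb1 (-2.30), spb4 (-2.25) and dbp9 (-2.14). Apart from mak5 and utp10, which were above background on the untreated array only, values ran from -2.69 to 0.51, the highest being dbp5, picked out after its value was seen and better known for mRNA export. On the arrays labelled deletion the median of the list was 0.26, with 2 members higher and 1 lower. Because the untreated and CdCl2 arrays labelled deletion are in doubt, as given below, the median was also taken there against the CdCl2 array, and was -0.35. Under CdCl2 and Congo Red on the arrays labelled reference the medians were -0.01 and -0.48.

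Genes of tRNA modification went the same way, with 9 of 10 lower, 0 higher and a median of -1.53. This list was also drawn up after values had been seen. It included trm6 (-2.85) and trm61 (-2.32), whose products form 1 methyltransferase. Of 15 genes of translation factors and ribosomal proteins, 2 were lower and 0 higher. The list's median was -0.24, beside -0.26 over genes with a symbol, where 18.3% were higher and 27.7% lower. The 4 members farthest from 0 were nip1 (-1.51), tif34 (-1.26), tif35 (-0.94) and EifCb (-0.92), all for translation initiation factors. Of 11 genes for import into mitochondria and their tethers, 7 were lower and 0 higher, with a median of -1.20. They included the outer membrane channel gene tom40 (-2.41), the import motor genes tim44 (-2.11) and pam18 (-1.76), and the receptor gene tom70 (-2.03).

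Genes of peroxisomes and fatty acid use were higher. Of 15 measured, 9 were at least 2-fold higher and 0 lower, and the median was 1.34, or -1.10 with the spike-in scaling. The gene farB1 had levels of 1.17 under AmB and -3.24 untreated. The import receptor gene pex7 had levels of -2.25 under AmB and -5.88 untreated, a difference of 3.63 ± 0.10. Among the arrays labelled deletion, pex7 was above background on the untreated and CdCl2 arrays and not on the AmB array. The membrane protein receptor gene pex19 (2.41) and the docking gene pex13 (1.84) followed, and were 2.06 and 0.93 on the arrays labelled deletion. The gluconeogenic gene acuF, for phosphoenolpyruvate carboxykinase, had levels of 3.98 under AmB and 1.03 untreated, a difference of 2.95. It differed by 0.45 on the arrays labelled deletion, or 1.31 against their CdCl2 array.

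Amino acid synthesis genes split. Of 19 measured, 9 were at least 2-fold higher and 6 lower, with a median of 1.03, or -1.42 with the spike-in scaling. The gene cpcA, for the transcription factor that activates amino acid synthesis when amino acids are short, had levels of 7.11 under AmB and 3.63 untreated, a difference of 3.48 ± 0.06. The homoserine acetyltransferase gene met2 (2.96), the ornithine carbamoyltransferase gene argB (2.50) and arg2 (2.03) were also higher. The corresponding values on the arrays labelled deletion were 2.40 for cpcA, 0.40 for met2, 0.74 for argB and 1.31 for arg2, and the list's median was -0.16. Of the 5 autophagy genes, 3 were higher and 0 lower, with a median of 1.46, or -0.99 with the spike-in scaling. They were the vacuolar lipase gene atg15 (2.27), the kinase gene atg1 (1.80) and the sterol glucosyltransferase gene atg26 (1.46), with atg11 next at 0.96. The autophagy median on the arrays labelled deletion was 0.02 over the 3 members measured on both arrays there.

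Nitrogen genes did not move together: of 10 measured, 3 were higher, 3 lower and 4 within 2-fold, with a median of 0.02. These counts stand beside 27.1% higher and 20.7% lower over all probes, and 18.3% and 27.7% over genes with a symbol. The nitrate reductase gene niaD had levels of 3.13 under AmB and 5.79 untreated, the nitrite reductase gene niiA 3.70 under AmB and 6.07 untreated, and the nitrate transporter gene crnA 0.55 under AmB and 2.85 untreated. All 3 nitrate genes, which neighbour each other by their locus numbers, were lower, with differences of -2.65, -2.37 and -2.29. The purine breakdown gene hxB, for an activator of molybdenum hydroxylases, had levels of 1.61 under AmB and -1.63 untreated, a difference of 3.24. These genes differed on the arrays labelled deletion by -2.01 (niaD), -1.28 (niiA), -2.69 (crnA) and 3.16 (hxB). The proline oxidase gene prnD had levels of -2.39 under AmB and -5.62 untreated, a difference of 3.23, while prnB, for the proline transporter, differed by 0.03.

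Cell wall genes did not move together. Of 24 measured, 3 were higher and 6 lower, with a median of -0.38. Over genes with a symbol the shares were 18.3% higher and 27.7% lower. The chitin synthase gene with the symbol chsD (AN1046) had levels of -1.47 under AmB and -6.22 untreated, a difference of 4.75 ± 0.12. It was not above background on the AmB array labelled deletion. Of the other members measured on both arrays, scw4 (4.34), gmtA (-2.86) and cwh41 (-2.40) were farthest from 0, and ags2, measured on the untreated array only, was at least 29.3-fold lower. Of 7 genes of the cell wall integrity kinase pathway, 1 was lower and 0 higher, namely the kinase gene bck1 (-1.49). Of 16 genes on the array for secreted enzymes that attack plant polysaccharides, 10 were measured, 9 of them higher and 0 lower. The shares over all probes were 27.1% and 20.7%. Any gene measured on the AmB array only entered the higher count. Of the 8 measured on both arrays, 7 were above 0, with a median of 2.09, or -0.36 with the spike-in scaling. This list was drawn up after values had been seen. The rhamnogalacturonan lyase gene rglB differed by 3.71, the beta-xylosidase gene xlnD by 3.48 and the alpha-glucuronidase gene aguA by 2.11 (0.94 after quantile normalization), and on the untreated array pgxB, rglB and aguA had levels below -5.

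Stress genes differed between lists. The counts stand beside 18.3% higher and 27.7% lower over genes with a symbol, whose median was -0.26. None of the 7 measured genes of the SakA kinase pathway was 2-fold higher or lower, with a median of 0.44 and a range of -0.10 to 0.76. Among 13 stress and nutrient regulators 5 were higher and 0 lower, with a median of 0.84. After cpcA came the pH regulator gene pacC (2.31), ace1 (1.95) and the oxidative stress regulator gene yap1 (1.79). Of 8 chaperone genes, 4 were higher and 1 lower, with a median of 0.97. The gene fes1, for a nucleotide exchange factor of Hsp70 in yeast, had levels of 3.83 under AmB and 0.14 untreated, a difference of 3.69 ± 0.02. It was also higher under CdCl2 (2.42) and Congo Red (1.54). Among 3 antioxidant genes 0 were lower and 1 was higher, the superoxide dismutase gene sod1 (1.20), which fell short of 2-fold after quantile normalization (0.22) and stood at -0.0071 in the matching columns of the authors' deposited table.

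Cell cycle and polarity genes were lower in 13 of 26 measured and higher in 3, with a median of -1.03, which was 0.62 with the normexp background. The replication gene sld2 (-2.74), the septin genes aspC (-2.41) and aspA (-2.09) and the kinesin gene kipB (-2.05) were farthest from 0. Calcium pump genes went apart: pmcB had levels of 0.30 under AmB and -2.82 untreated, a difference of 3.12, and pmr1 had levels of -0.96 under AmB and 0.84 untreated, a difference of -1.79. The value for pmcB on the arrays labelled deletion was -0.55. Among drug and solute transporters, after mfsA came mdr1 (2.18), optB (2.01, or 0.79 after quantile normalization) and atrF (1.68). In that list 4 of 12 were higher and 3 lower. The shares were 27.1% and 20.7% over all probes, and 18.3% and 27.7% over genes with a symbol. The trehalase gene treA differed by 2.44. Of 15 conidiation genes, 2 were higher and 2 lower, with a median of -0.09. Of 18 genes of sexual development 5 were higher and 1 was lower, beside 18.3% and 27.7% over genes with a symbol. The higher ones included MAT2, at least 8.66-fold higher. Of those measured on both arrays, they included the pheromone precursor gene ppgA (2.61) and the receptor gene gprD (1.98). Of 11 iron genes, 1 was higher, the siderophore transporter gene mirC (1.99), and 2 were lower. Of 20 proteasome and ubiquitin genes 2 were higher and 0 lower, with a median of -0.18. The cell cycle, conidiation, iron and proteasome counts stand beside the same 18.3% higher and 27.7% lower over genes with a symbol.

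**Figure D4:**
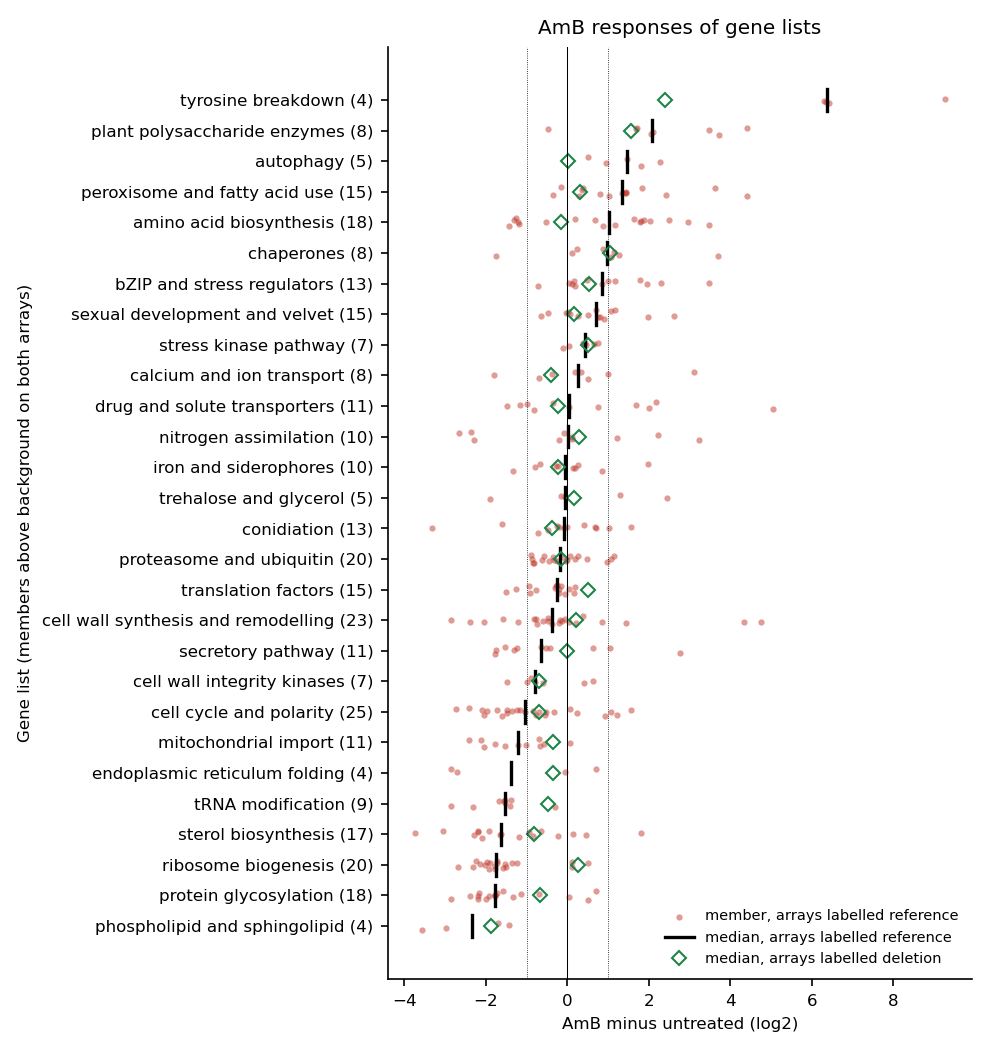
AmB minus untreated difference (log2) for each member of the gene lists with at least 4 members above background on both arrays labelled reference (red points), with the list's median (black bar) and the median on the arrays labelled deletion against their untreated array (open diamond). Tyrosine breakdown lies at 6.38, and the lowest list, named for phospholipids and sphingolipids but holding aclA and pfa4 beside sur2 and lcb2, at -2.34; with the spike-in scaling every point shifts by -2.44, which leaves tyrosine breakdown as the one list with a positive median. With the normexp background the cell cycle median is 0.62.

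Genes past 2-fold often had a neighbour past 2-fold in the same direction. Where a gene was at least 2-fold higher, the next measured gene in the annotation's order was also higher in 39.0% of 1616 pairs, against 24.2% over all 6571 pairs. Where a gene was at least 2-fold lower, the next was also lower in 30.5% of 1466 pairs, against 22.3%. Runs of at least 3 neighbours numbered 148 on the higher side, with 524 genes, and 82 on the lower side, with 272 genes. The longest had 7 genes on the higher side and 5 on the lower side. Besides the tyrosine block, the longest runs were AN5940 to AN5934 (7 genes, median 3.11), AN11177 to AN9108 (6 genes, 4.03), AN6782 to AN6786 (6 genes, 3.65), AN5659 to AN5654 (6 genes, 3.27), AN2373 to AN2378 (6 genes, 3.21) and AN3281 to AN3276 (6 genes, 2.47). These medians use the bound for genes measured on 1 array. All 410 probes measured on the AmB array only were called higher, and several of these runs hold such genes. Of the 702 probes measured on the untreated array only, 144 were called lower. The shares and run counts of the higher and lower sides are therefore not on an equal footing. None of the genes in these 6 runs had a symbol.

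**Figure D5:**
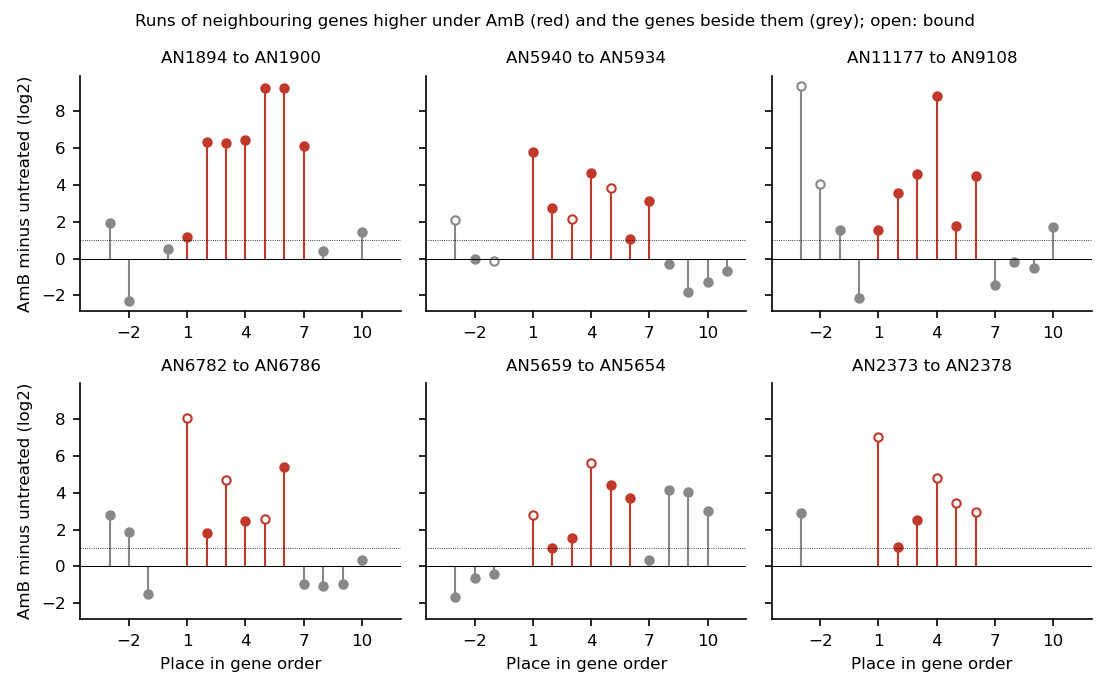
AmB minus untreated difference (log2) by place in gene order for 6 of the 7 runs of at least 6 neighbouring genes at least 2-fold higher on the arrays labelled reference; red marks genes in the run, grey the genes beside it, open circles bounds for genes above background on 1 array, and gaps genes above background on neither. In the first panel maiA, fahA, hmgA, hmgX, AN1899 and AN1900 stand between 6.12 and 9.28, with AN1901 beside them at 0.42.

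The AmB response on the arrays labelled deletion, in which the atfA probe was bright, was smaller by these counts. Against its untreated array 1310 probes were at least 2-fold higher, 15.8% of 8292 measured, and 848 were lower, 10.2%. Of the higher genes of the arrays labelled reference, 42.7% were higher there too, which is 75% of that set's own list. For the lower genes the shares were 29.0% and 60.1%. Opposite calls were few: 30 genes were higher on the arrays labelled reference and lower on those labelled deletion, and 8 the reverse. The untreated and CdCl2 labels of that set are in doubt, because its CdCl2 minus untreated difference ran against that of the value table's columns labelled reference, with r = -0.963 across probes. Taken against the CdCl2 array instead, its AmB response had 1519 higher (17.9%) and 933 lower (11%). The difference between the sets was not tested, and strain, slide and culture cannot be told apart in it.

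Under CdCl2 and Congo Red, measured against the same untreated array labelled reference, fewer probes passed 2-fold. CdCl2 gave 359 higher (4.41%) and 183 lower (2.25%), and Congo Red, whose array lay on the other slide, gave 480 higher (5.75%) and 114 lower (1.37%). Of the 12 highest annotated genes under AmB, 2 were at least 2-fold higher under CdCl2 and 2 under Congo Red. Of the 12 lowest, 0 were at least 2-fold lower under either. Since the untreated array is shared, these comparisons are not independent.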

How the data were processed

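RNA of 8 pools was hybridized with Cy3 to custom Agilent arrays. The authors deposited scanner files in which, per the file headers, each spot has a processed signal, that is its intensity after background subtraction, unlogged. Agilent Feature Extraction 12.0.3.1 is the software that the submitters' processing notes name. A deposited value table holds log2 values, and the sources used here do not say how it was normalized. Folds, ratios and percent values were computed here. Arrays were grouped by label, and slides were read from the scanner files' own names.

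Controls and outlier-flagged spots (1.54% of spots on the AmB array, 1.76% on the untreated array) were dropped. The remaining log2 signals were averaged per probe over up to 4 spots, less the log2 75th percentile of the array. A probe was above background where over 50% of its spots were flagged so (7781 probes on the AmB array, 8073 on the untreated array), and measured where this held on at least 1 of the pair. Where it held on 1, the fold is a lower bound against the other array's lowest signal above background or the probe's own, whichever is higher. A call means at least 2-fold. With 1 array a group no test was possible, and the labels' pooling leaves the spread between cultures unknown. Names and gene order come from the RefSeq table of ASM1142v1: 9697 of 10550 probes matched and 776 had a symbol, some borrowed from other species. Coordinates are not given because the files name no build.

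The members and lists were chosen with earlier results of these data known. Lists were matched by symbol, and those for ethanol use and penicillin found no gene. After values had been seen, 4 genes were taken out as wrong members (farA from conidiation; steA, ste7 and mpkB from the stress kinases) and 3 lists were added (glycosylation, tRNA modification, plant polysaccharides). Genes were named by rule: with a symbol and at least 2-fold also after quantile normalization, the 12 largest differences each way; of any probe, the 4 largest each way; the 3 largest bounds each way; up to 4 members of a list farthest from 0; and the markers. The genes erg4A, dbp5, utp10 and those in or beside runs fall outside it.

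Alternatives were quantile, median and loess scaling, a 75th percentile over probes detected on all arrays, normexp (offset 50, on median signals, the files having no mean signal), the value table, flagged spots kept, other filters on dim probes and, added after seeing the data, spike-in scaling. Python 3.11.15, pandas 2.3.3, R 4.3.3 and limma 3.58.1 were used, and the calculation was tested on simulated data. A planned motif search was not run and no sequence is shown, since no probe or promoter sequences were at hand.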

Additional observations from a re-analysis of the deposited data

Results flagged for a closer look

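The E1A spike-in probes, which lie outside the gene probes and served above only to rescale them, were 0.417 higher on the log2 scale on the AmB array labelled reference than on its untreated array, while the 75th percentile of the gene probes was 2.03 lower. What drew attention was a signal in control probes that moved opposite to the genes. On the arrays labelled deletion the spike-ins were 0.72 lower under AmB than untreated. The part of the labelling, the RNA input or the cells in this was not tested.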

How the results depend on the processing

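Median scaling, a 75th percentile over probes detected on all arrays, loess, quantile normalization and keeping flagged spots turned no named gene of at least 2-fold, and no list median of at least 2-fold, the other way. The counts of 2302 higher and 1760 lower stayed within 1.5 times under these, and were 1892 and 1616 over probes above background on both arrays. Sizes did change. Quantile normalization moved 79 of 105 named genes by more than the combined SD of their spots, and loess moved 73. Of 29 list medians, quantile normalization moved 23 and loess 22 by more than their members' median SD. AN3125, for example, went from 10.58 to 9.10 after quantile normalization. The SEs over the spots do not cover such shifts. Without a filter on dim probes 4159 were higher. The normexp background gave 838 lower, and turned the median of cell cycle genes (0.62) and the values of erg4 (0.31), spb4 (0.53), aspC (0.62), kipB (0.97) and trm61 (0.36). The spike-in scaling gave 561 higher and 6591 lower. By its construction it lowers every difference equally, and it turned the medians of peroxisome (-1.10), amino acid (-1.42), autophagy (-0.99) and plant polysaccharide genes (-0.36). It also turned pyroA (-0.78), pex19 (-0.030), pex13 (-0.60), pacC (-0.14), ace1 (-0.50), yap1 (-0.66), sod1 (-1.25), gprD (-0.46), mirC (-0.46), treA (-0.0084), arg2 (-0.41), atg15 (-0.18), atg1 (-0.64), atg26 (-0.99), mdr1 (-0.27), optB (-0.44), atrF (-0.77), aguA (-0.33) and erg4A (-0.64). In the value table's columns labelled deletion, which match these arrays, sod1 was -0.0071. The table's columns labelled reference, in which atfA is high, gave 937 higher and 934 lower, a median of -0.032 for amino acid genes, and opposite values for chsD (-0.21), aclA (0.038), chsB (0.21), pyroA (-0.22), pex7 (-0.51), sod1 (-0.33), ppgA (-0.32), mirC (-0.28), pmcB (-0.45), atg15 (-0.53), sec11 (-0.35), mdr1 (-0.81) and erg4A (-0.24). Except for the spike-in scaling, the cause was not tested. Signal over background limits the dim probes: AmB levels below -4.97 were not measurable. No paired analysis was possible because each group has 1 array and the labels give no replicate numbers, and for the same reason no replicate could be left out.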

Other observations

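The share of the total gene signal carried by the 100 brightest probes was 40.8% on the AmB array labelled reference, against 33.2% on its untreated array, and 39.6% on the AmB array labelled deletion, against 33.2% on its untreated array. Among the runs of lower neighbours, 4 held 5 genes, and 1 of these, from rmtA to AN4232, included the ribosome assembly gene rrp3 and agm1, with a median of -1.89. On the higher side 20 runs held at least 5 genes.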
